A study of Homo sapiens with 12 samples.

Results

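Interferon-stimulated genes are the genes that cells switch on when interferon signals at their surface. Their transcripts were followed here as RNA recovered with eIF4E, the cap-binding subunit through which messenger RNAs are brought to the ribosome. A list of 41 such genes was taken by gene symbol, with the older symbols DDX58, G1P2 and G1P3 accepted. Of these, 38 had at least 1 probe set that the array's annotation assigns to that gene alone, 57 probe sets in all, out of 11963 genes with such a probe set. The other 3 were not analysed here. In 33 of the 38 the signal passed the filter on dim genes (a geometric mean signal of at least 57.4) and was tested, among 7178 genes tested in all.

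The cells were MDA-MB-231, an established human triple-negative breast cancer line grown in DMEM with serum. Precipitates fell into 4 groups of 3 arrays: eIF4E antibody after 2 Gy of X-rays, eIF4E antibody in untreated cells, control IgG after 2 Gy, and control IgG in untreated cells. Irradiated cells were collected 6 h after the dose, and RNA was isolated with a commercial kit for RNA immunoprecipitation on arrays. The design text calls the 3 replicates biological and the labels do not say how they were separated, so p-values measure the spread between these arrays.

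Double-stranded RNA and other foreign nucleic acids are detected in the cytosol by sensors such as RIG-I and MDA5, which lead to the release of type I interferon. Interferon receptors signal through JAK kinases to a complex that contains IRF9. That complex binds a short DNA element, the interferon-stimulated response element (ISRE), in front of its target genes. The targets include further sensors, enzymes and binding proteins that act on viral RNA or protein, small membrane proteins that block viral entry or release, transcription factors, and the machinery of antigen presentation. Many tumour lines express part of this set without added interferon, and DNA damage by radiation is known to induce it in some cells.

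The arrays of the antibodies differed in their controls, and every array had been scaled to the same trimmed mean, so higher and lower mean relative to the other genes of an array. The probe set for Alu, a repeat frequent in introns, read 13482 to 18476 on the 6 eIF4E arrays and 36876 to 53246 on the 6 IgG arrays. Actin's 3' probe set divided by its 5' one gave 1.33 to 1.53 on eIF4E and 2.96 to 5.38 on IgG arrays. Hybridization controls were 5.62-fold brighter with IgG. Whether these differences contribute to any difference between antibodies below was not tested. Replicate 1 of every group stood apart in another control measure, the ratio of the hybridization controls bioB and bioC, at 0.373 to 0.443 against 0.0269 to 0.0523 in replicates 2 and 3. VIM, CAV1 and AXL, genes of the mesenchymal state of this line, were bright on all 12 arrays, and SPARC, another such marker, was at 4.42 to 64.5. Of 6 luminal markers listed as low in this line, ESR1, PGR and CDH1 were at most 60.9. The others were not as low, with ERBB2 at 179.9 to 420.0, EPCAM at 533.1 to 1541.8 and GATA3 at 602.7 to 1466.0. SERPINA1, listed as a hepatocyte marker, read 153.3 to 507.3. The 4 leukocyte markers summed to 85.0 to 210.5 on eIF4E and 84.7 to 199.1 on IgG arrays.

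The DNA element that answers to interferon can be read in front of many members. Promoter windows from RefSeq (GRCh38.p14, 250 bases before to 50 after a transcription start) were searched on both strands for the ISRE letters, GAAA followed by any 2 bases and GAAA again. Of all 35116 windows 3.57% held a match, and of all genes with a window 4.38% had one. The 28 tested members with a window had 40 windows, of which 62.5% held a match, and 20 of the 28 members (71.4%) had one. The stretches below show the match or matches, in capitals, of 6 members that were lowest in replicate 1 of every group (a pattern described further on) and of 4 members that were not. Each runs 5' to 3' on the gene's strand. A match on the other strand appears as the reverse complement, TTTC on either side of 2 bases.
IFI44 (chr1:78649741-78649808, plus strand): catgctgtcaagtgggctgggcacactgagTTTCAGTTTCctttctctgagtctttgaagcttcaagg
IFIT3 (chr10:89327811-89327914, plus strand): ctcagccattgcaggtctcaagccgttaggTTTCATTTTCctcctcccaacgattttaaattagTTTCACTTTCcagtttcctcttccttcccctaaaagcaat
IFI6 (chr1:27672246-27672378, minus strand): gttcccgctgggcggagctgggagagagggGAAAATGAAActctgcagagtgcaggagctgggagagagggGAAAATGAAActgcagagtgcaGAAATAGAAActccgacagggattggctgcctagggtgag
IFIT1 (chr10:89392477-89392559, plus strand): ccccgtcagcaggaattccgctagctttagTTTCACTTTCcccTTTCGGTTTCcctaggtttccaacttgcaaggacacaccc
GBP1 (chr1:89065296-89065365, minus strand): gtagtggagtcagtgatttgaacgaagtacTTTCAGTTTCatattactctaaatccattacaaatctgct
OAS3 (chr12:112938301-112938493, plus strand): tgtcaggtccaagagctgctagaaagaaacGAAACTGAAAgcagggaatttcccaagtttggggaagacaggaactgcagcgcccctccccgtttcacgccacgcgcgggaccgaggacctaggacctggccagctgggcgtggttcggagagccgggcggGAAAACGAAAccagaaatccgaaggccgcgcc
ISG15 (chr1:1013354-1013429, plus strand): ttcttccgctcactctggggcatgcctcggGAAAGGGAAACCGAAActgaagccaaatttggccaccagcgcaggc
BST2 (chr19:17405715-17405790, minus strand): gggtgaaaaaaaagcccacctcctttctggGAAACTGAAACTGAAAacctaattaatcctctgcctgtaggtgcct
IFITM1 (chr11:313970-314059, plus strand): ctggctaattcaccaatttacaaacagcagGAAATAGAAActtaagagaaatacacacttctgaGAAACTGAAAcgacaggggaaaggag
IFI27 (chr14:94110598-94110680, plus strand): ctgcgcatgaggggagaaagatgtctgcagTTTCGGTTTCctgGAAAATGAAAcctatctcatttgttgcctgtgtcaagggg

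Position and copy number of the letters differ between these genes. IFI6 has 3 matches between bases -156 and -84 counted from its start. In ISG15 and in BST2 a pair of matches overlaps, so that the capitals run through both. The matches of IFI44, IFIT3, IFIT1 and GBP1 lie on the strand opposite to the gene. A second element, GAS, which binds factors activated by interferon gamma, was searched as TTCNNNGAA, where N is any base. It was found in 12 of the members' 40 windows (10 members) and in 7.66% of all windows, and its matches overlap those of the ISRE in IFI27, BST2, IFITM1 and MX1. A match is a run of letters and no measurement of binding.

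**Figure D1:**
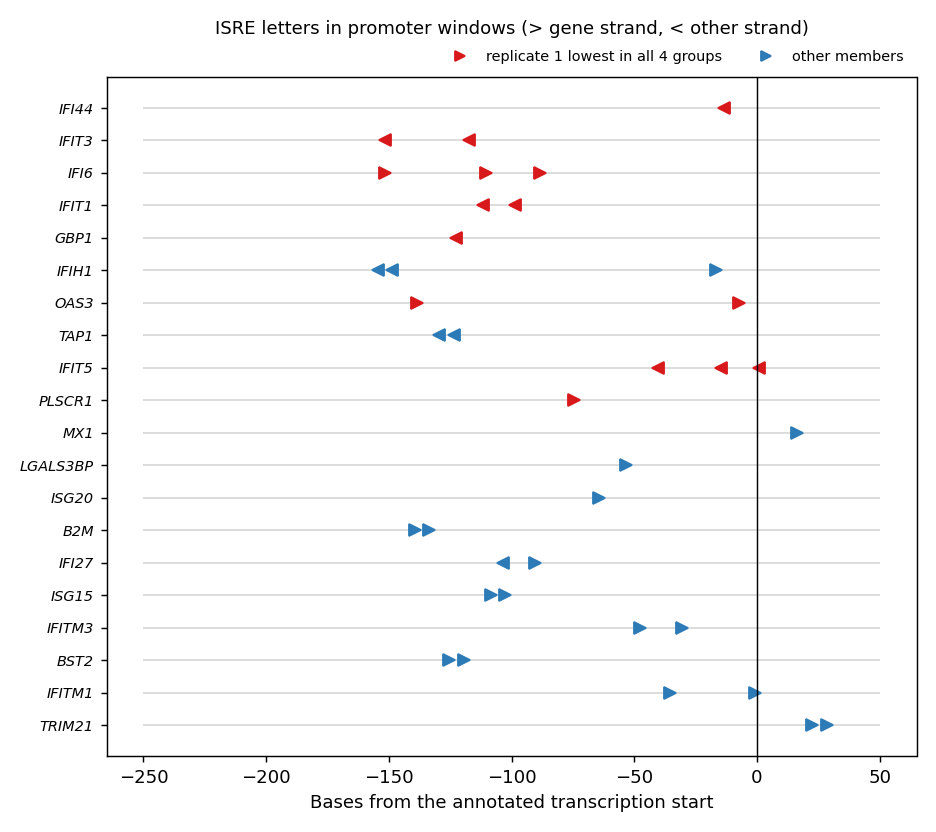
Positions of ISRE letters (arrowheads; pointing right for the gene's strand, left for the other) in bases from the annotated transcription start, in the first window with a match of the 20 members that have one. Matches of the 8 members lowest in replicate 1 of all 4 groups are red and those of the other 12 blue, and matches of both kinds lie on either strand, most of them before the start.

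The eIF4E precipitates were set against IgG to compare each member's RNA, relative to the other genes on its array. By the kind of protein they encode, all 9 members of the membrane and secreted group were higher with eIF4E (PLSCR1 by 1 of its 2 probe sets), and all 4 nucleic acid sensors and editors were lower. Soluble antiviral effectors went both ways, with 3 higher, 5 lower and 3 not past the threshold of 11 tested. Of 6 members with roles in transcription or nuclear bodies 4 were higher, SP110 by 1 of its probe sets. Both antigen presentation genes were lower, though B2M by 1 of its 2 probe sets and not after quantile normalization, and the call of TAP1 was lost under several settings. Over all 33 tested members, averaged over both treatments, 16 were higher and 11 lower at an adjusted p under 0.05 (limma, Benjamini-Hochberg over all genes tested). Of all 7178 genes 70.7% passed in this comparison, 32.5% higher and 38.2% lower, so passing the test did not by itself set a member apart from most genes. The members' median difference was 0.38 on the log2 scale, and that of all genes -0.07. In 17 members the 6 eIF4E arrays did not overlap the 6 IgG arrays, 13 higher and 4 lower, against 49.9% of all genes.

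**Figure D2:**
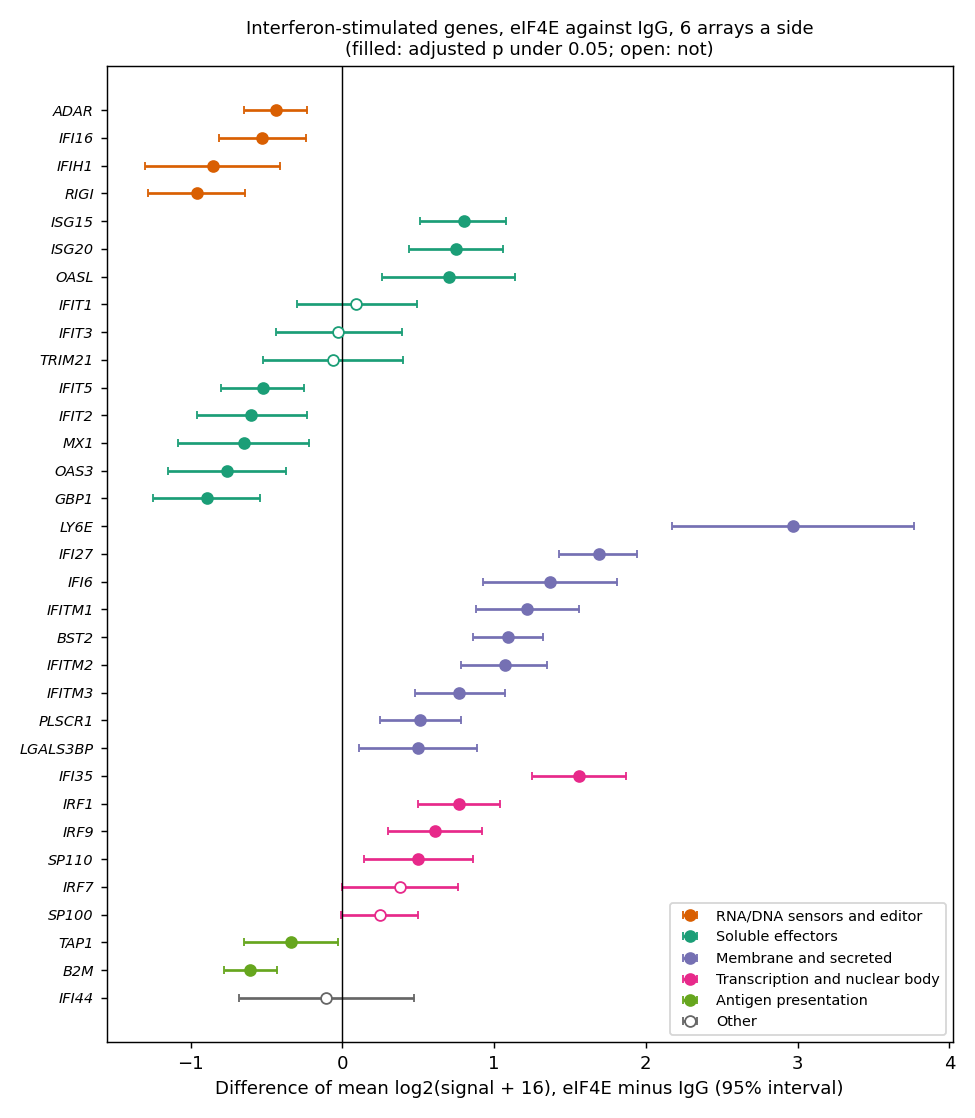
Difference of mean log2(signal + 16), eIF4E minus IgG, for the 33 tested members grouped by role, with 95% intervals over 6 arrays a side. Filled points passed an adjusted p of 0.05: the 9 membrane and secreted members lie between 0.50 and 2.97 and the 4 sensors and editors between -0.96 and -0.44.

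RIGI encodes RIG-I, the helicase that detects viral RNA with a 5' triphosphate. Its signal was 234, 249 and 254 in irradiated and 151, 238 and 226 in untreated eIF4E precipitates, against 625, 379 and 436 in irradiated and 408, 514 and 369.7 in untreated IgG precipitates, each triple in the order of replicates 1, 2 and 3. All 6 eIF4E arrays lay below all 6 IgG arrays, and the difference was -0.96 ± 0.15 on the log2 scale (SE, 6 arrays a side, adjusted p = 2.36e-05). IFIH1, which encodes the related sensor MDA5 for long double-stranded RNA, read 177, 215 and 177 in irradiated and 125, 225 and 167 in untreated eIF4E against 375, 358 and 319 in irradiated and 165, 495 and 398 in untreated IgG precipitates. Here replicate 1 of untreated IgG fell among the eIF4E values, while the other 5 IgG arrays lay above them, and the difference was -0.85 ± 0.21 (adjusted p = 0.00175). ADAR, the enzyme that edits adenosine to inosine in double-stranded RNA, read 1049, 965 and 1093 and 973, 1087 and 1197 in irradiated and untreated eIF4E, against 1826, 1451 and 1503 and 1255, 1454 and 1240.0 in irradiated and untreated IgG precipitates. The groups did not overlap, at -0.44 ± 0.10 (adjusted p = 0.000862). The fourth of this group, IFI16, a sensor of DNA, had eIF4E values of 729.9 to 1195 (median 1057) and IgG values of 1169.6 to 1754.5 (median 1578), which overlapped at 1 array of either side. Its difference was -0.53 ± 0.13 (adjusted p = 0.00229), and 2 further probe sets were lower as well, by -1.20 ± 0.12 and -0.46 ± 0.11.

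The largest difference of any member was that of LY6E, a lipid-anchored protein of the cell surface that restricts the fusion of coronaviruses. Its signal was 828.5, 526 and 936 in irradiated and 583, 899.8 and 1001.5 in untreated eIF4E precipitates, against 11.2, 157 and 161 in irradiated and 86.5, 53.2 and 163 in untreated IgG precipitates. The lowest IgG value lay within the range of markers not expected in these cells, whose median was 10.4 to 26.4 on IgG arrays, so the size of the difference, 2.97 ± 0.38 (adjusted p = 2.62e-06), depends on how dim signals are treated. IFI27, a small hydrophobic protein of mitochondrial and other inner membranes, read 1591, 1633 and 1532 and 2054, 1987 and 1993 in irradiated and untreated eIF4E against 503, 553 and 467 and 816, 509 and 479.8 in irradiated and untreated IgG precipitates. Each eIF4E array was at least 1532 and each IgG array at most 816, a difference of 1.69 ± 0.12 (adjusted p = 5.05e-09). IFI6, a related small membrane protein that limits apoptosis and the replication of flaviviruses, had 569.6, 599 and 713 and 538, 889.6 and 835 in irradiated and untreated eIF4E, against 150.3, 334 and 249 and 165, 373 and 331 in irradiated and untreated IgG precipitates. Within each side its replicate 1 was the lowest in both treatments, yet no eIF4E value reached down to the IgG range, at 1.37 ± 0.21 (adjusted p = 1.69e-05).

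BST2, also called tetherin, holds budding virus particles at the cell surface. Its signal was 3591, 2930.3 and 2634 in irradiated and 3174, 3004.5 and 2818 in untreated eIF4E, against 1617.5, 1312 and 1398 in irradiated and 1678, 1231.5 and 1266 in untreated IgG precipitates, without overlap. The difference of 1.09 ± 0.11 (adjusted p = 1.91e-07) had one of the smaller errors among the members. The IFITM proteins sit in plasma and endosomal membranes and hinder the fusion of virus with the cell. IFITM1 read 1368, 1392 and 1459.5 in irradiated and 1649, 1351 and 1026 in untreated eIF4E against 749.7, 604 and 425 in irradiated and 805, 484 and 477 in untreated IgG precipitates. IFITM2 had 5653, 4238 and 4123 in irradiated and 5072.5, 4325 and 4268.5 in untreated eIF4E against 2209.8, 2413 and 1917 in irradiated and 3016, 1649 and 2085 in untreated IgG precipitates. IFITM3 had 7420.0, 6051 and 6007 in irradiated and 6975, 6063 and 6042 in untreated eIF4E against 3555, 4710.2 and 2817 in irradiated and 5257, 3323 and 3312 in untreated IgG precipitates. In all 3 the sides were separate, with differences of 1.22 ± 0.16 (adjusted p = 3.86e-06) for IFITM1, 1.07 ± 0.13 (adjusted p = 2.4e-06) for IFITM2 and 0.77 ± 0.14 (adjusted p = 9.41e-05) for IFITM3. The IFITM genes are related copies, and the probe sets used for IFITM2 and IFITM3 are of the kind that can bind related transcripts. A probe set annotated to both IFITM1 and IFITM2 was left out. The values of single copies are therefore uncertain.

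The last members of this group, PLSCR1 and LGALS3BP, had the smallest differences in it. PLSCR1, a phospholipid scramblase of the plasma membrane, read 805, 1021 and 1154 in irradiated and 904, 1166 and 1109 in untreated eIF4E against 663.5, 742 and 945 in irradiated and 576, 730.4 and 646 in untreated IgG precipitates. A few arrays of the sides overlapped and the difference was 0.51 ± 0.12 (adjusted p = 0.00152). A second probe set of the same gene was called in the opposite direction, with 184, 366 and 335 in irradiated and 297, 416.5 and 366.5 in untreated eIF4E against 344, 691 and 498 in irradiated and 485, 743 and 621 in untreated IgG precipitates (-0.75 ± 0.19, adjusted p = 0.00196). Of the 9 members with more than 1 probe set above the filter it was the only one with opposite calls, and the direction of PLSCR1 depends on the probe set. LGALS3BP, a secreted glycoprotein that binds galectin-3, read 1897, 1591 and 1811 in irradiated and 1093, 2678 and 2042 in untreated eIF4E against 1834, 1668 and 1009.9 in irradiated and 962, 1118 and 1196 in untreated IgG precipitates. The sides overlapped widely, at 0.50 ± 0.19 (adjusted p = 0.0235), and the call was lost when any 1 of 4 arrays was left out, untreated eIF4E replicate 2 or 3, irradiated IgG replicate 3 or untreated IgG replicate 1 (adjusted p = 0.0528 to 0.077).

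**Figure D3:**
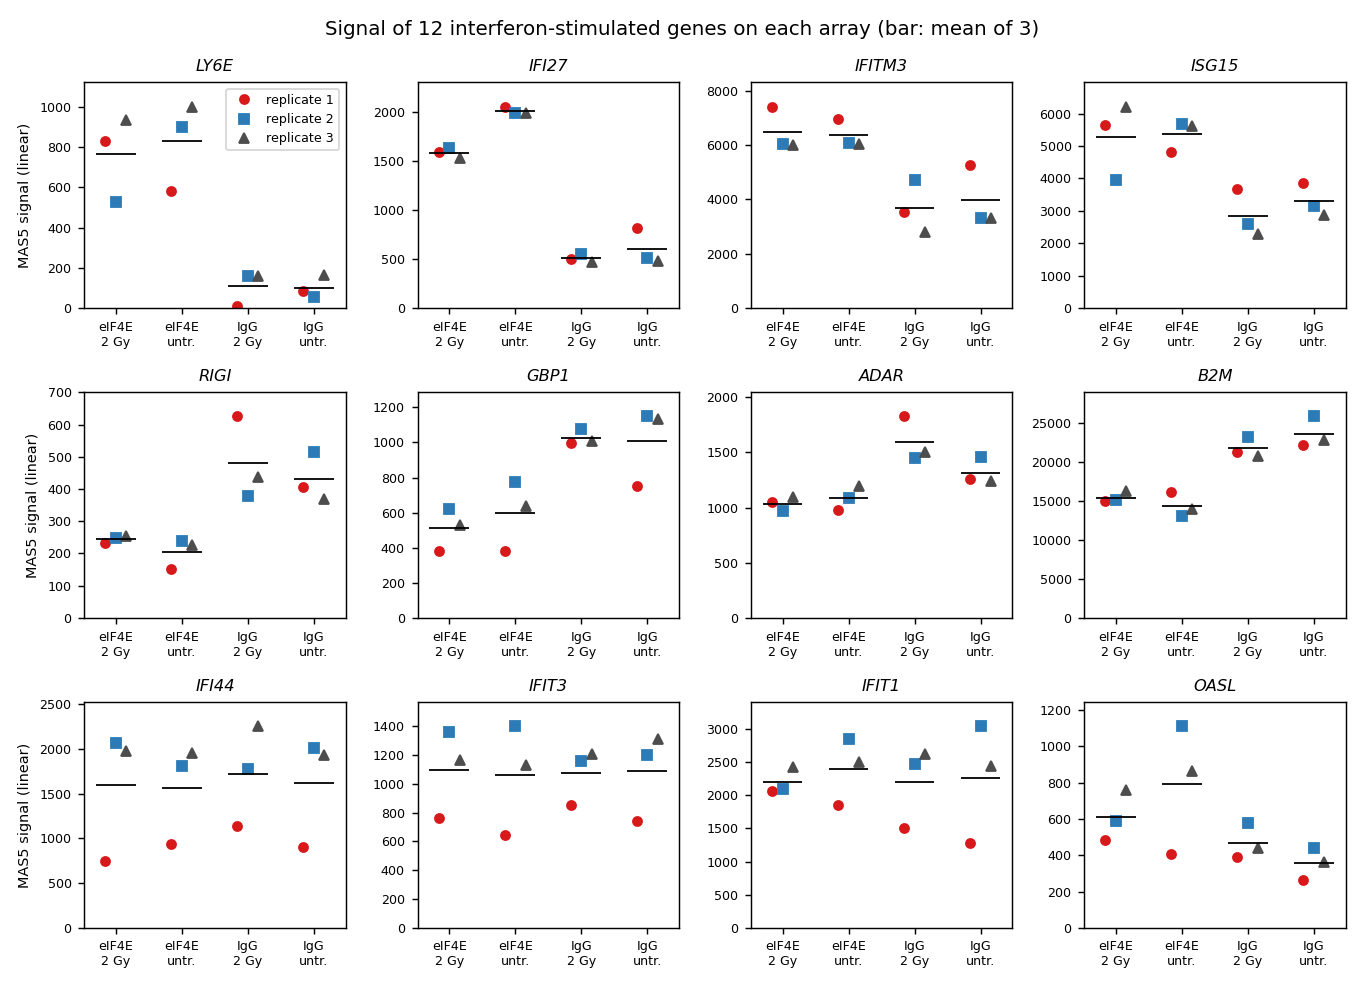
Signal on each array (linear, own axis per gene from 0) of 12 members by group, in the order irradiated eIF4E, untreated eIF4E, irradiated IgG and untreated IgG; symbols mark the replicate number and bars the mean of 3. The top row is higher with eIF4E, the middle row lower, and in the bottom row replicate 1 (red) is the lowest of its group in all 4 groups.

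Among the soluble effectors, those higher with eIF4E were ISG15, ISG20 and OASL. ISG15, a ubiquitin-like protein that is attached to other proteins, read 5649.8, 3952 and 6219 in irradiated and 4828, 5665 and 5633 in untreated eIF4E against 3661, 2606 and 2299.6 in irradiated and 3861, 3141 and 2883 in untreated IgG precipitates. The lowest eIF4E array, irradiated replicate 2, was just above the highest IgG array, and the difference was 0.80 ± 0.13 (adjusted p = 5.49e-05). OASL, a relative of the oligoadenylate synthetases that has lost their enzyme activity and enhances RIG-I signalling, read 483.5, 587 and 759.5 in irradiated and 409, 1112 and 865.5 in untreated eIF4E against 389, 576 and 441 in irradiated and 265, 442 and 362 in untreated IgG precipitates. Replicate 1 was the lowest of its group throughout, the sides overlapped, and the difference was 0.70 ± 0.21 (adjusted p = 0.00619). ISG20, an exonuclease that degrades single-stranded RNA, was separate on its sides, with 167.7 to 279 (median 233) on eIF4E and 108.5 to 141.5 (median 128) on IgG arrays and a difference of 0.75 ± 0.15 (adjusted p = 0.000215).

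Those lower with eIF4E were GBP1, OAS3, MX1, IFIT2 and IFIT5. OAS3, which makes 2'-5' oligoadenylates that activate RNase L, read 57.3, 85.8 and 69.8 in irradiated and 65.0, 85.6 and 77.5 in untreated eIF4E against 114.5, 150.2 and 134.5 in irradiated and 96.9, 140.2 and 187 in untreated IgG precipitates. The sides did not overlap, all values were dim, and the difference was -0.76 ± 0.18 (adjusted p = 0.00141). MX1, a dynamin-like GTPase that traps viral nucleocapsids, read 103.5, 146 and 159 in irradiated and 77.4, 161.5 and 125 in untreated eIF4E against 315, 188 and 185.5 in irradiated and 134, 240.3 and 213 in untreated IgG precipitates. Its sides overlapped, and it passed only in the mean of both treatments and in neither treatment alone, at -0.65 ± 0.20 (adjusted p = 0.00867). IFIT2 and IFIT5 belong to a family of tetratricopeptide proteins that bind foreign RNA. IFIT2 read 304, 316 and 307 in irradiated and 235, 333 and 259 in untreated eIF4E against 288, 587 and 477 in irradiated and 408, 369.6 and 658 in untreated IgG precipitates, with a difference of -0.60 ± 0.17 (adjusted p = 0.00564). IFIT5 read 690.3, 836 and 804 in irradiated and 675, 820.3 and 809.7 in untreated eIF4E against 742, 1127 and 1254 in irradiated and 1052, 1303 and 1329 in untreated IgG precipitates, with a difference of -0.52 ± 0.13 (adjusted p = 0.00174). In both genes 1 IgG array, replicate 1 of irradiated cells, lay within the eIF4E range. GBP1, a GTPase that coats intracellular pathogens, had eIF4E values of 380.0 to 772 (median 574) and IgG values of 752 to 1148 (median 1044), a difference of -0.89 ± 0.17 (adjusted p = 0.000157), and its second probe set was lower as well, at -1.27 ± 0.11. The remaining effectors did not pass: IFIT1 was at 0.09 ± 0.19 (adjusted p = 0.67), IFIT3 at -0.03 ± 0.20 (adjusted p = 0.91), and TRIM21, a ubiquitin ligase that binds antibodies inside cells, at -0.06 ± 0.22 (adjusted p = 0.822).

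In the group of transcription factors and nuclear proteins IFI35, a leucine zipper protein, had the largest difference. It read 518, 460.4 and 508 in irradiated and 472, 607 and 564 in untreated eIF4E against 195, 173 and 110.1 in irradiated and 218, 173 and 145 in untreated IgG precipitates, every eIF4E array above every IgG array, at 1.56 ± 0.15 (adjusted p = 8.02e-08). IRF1, a transcription factor of the early interferon response, read 515, 455 and 543 in irradiated and 455, 546 and 552 in untreated eIF4E against 275, 366 and 302 in irradiated and 215, 336 and 279 in untreated IgG precipitates. The sides did not overlap, at 0.77 ± 0.13 (adjusted p = 4.43e-05). IRF9, the DNA-binding subunit of the complex that acts at the ISRE, read 243, 283 and 296 in irradiated and 267.5, 312 and 305 in untreated eIF4E against 131, 233 and 205 in irradiated and 148, 197 and 189 in untreated IgG precipitates. Here too the sides were separate, if narrowly, at 0.61 ± 0.15 (adjusted p = 0.0015). SP110, a nuclear body protein, was dim, with 82.3 to 104.3 on eIF4E and 52.4 to 66.6 on IgG arrays, a difference of 0.50 ± 0.17 (adjusted p = 0.0146), and 2 other probe sets of the gene were at -0.08 and -0.04 and did not pass. IRF7, which drives the later wave of interferon genes, was at 0.38 ± 0.18 (adjusted p = 0.0687). SP100, another nuclear body protein, was at 0.25 ± 0.12 (adjusted p = 0.0812), while another probe set of SP100 was lower, at -0.53 ± 0.17 (adjusted p = 0.0105).

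B2M, the light chain of MHC class I molecules, was lower with eIF4E. Its probe set read 14986, 15109.9 and 16295 in irradiated and 16202, 13080.5 and 14061 in untreated eIF4E against 21324, 23326 and 20880.2 in irradiated and 22283, 25915 and 22907 in untreated IgG precipitates. No arrays of the sides overlapped, at -0.61 ± 0.08 (adjusted p = 6.72e-06), but a second probe set was at -0.02 ± 0.10 and did not pass. After quantile normalization, where that second probe set was the one used, B2M was higher at 0.58. TAP1, a subunit of the peptide transporter that loads those molecules, read 861, 976 and 1221 in irradiated and 579.5, 1049 and 1031 in untreated eIF4E against 1264, 1417 and 1192 in irradiated and 939, 1235 and 1093 in untreated IgG precipitates. The sides overlapped, and its call at -0.34 ± 0.15 (adjusted p = 0.0464) was lost in 8 settings that left out arrays and in 5 others. IFI44, a cytosolic protein of unclear function, was at -0.11 ± 0.27 (adjusted p = 0.736).

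The 5 members under the filter were the oligoadenylate synthetases OAS1 and OAS2, the GTPase MX2, the ubiquitin ligase TRIM22, and IFI44L. Their brightest probe sets reached at most 53.2 for OAS1, 92.8 for OAS2, 72.5 for MX2, 104.2 for TRIM22 and 85.9 for IFI44L on any array, and no comparison was made for them.

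Calls were fewer in each treatment alone, where 3 arrays stood against 3. In untreated cells 15 members were higher and 8 lower with eIF4E than with IgG, where 58.9% of all genes passed (27.2% higher and 31.7% lower). The 8 lower calls were 3 without eIF4E replicate 1, 4 without IgG replicate 3 and 5 after median centring. In irradiated cells 12 were higher and 7 lower, where 59.5% of all genes passed (27.2% higher and 32.3% lower). The 7 lower calls were 4 without eIF4E replicate 1 and 4 without IgG replicate 2 of the irradiated arrays. The sign was the same in both treatments for 31 of 33 members, and 18 passed in both. MX1, SP110 and TAP1 passed in the mean of both treatments and in neither treatment alone. IFIT2, IFIT5, LGALS3BP, OASL and PLSCR1 passed in untreated cells and not in irradiated ones. ADAR passed in irradiated cells (-0.61 ± 0.14, adjusted p = 0.00152) and not in untreated ones (-0.28 ± 0.14, adjusted p = 0.105). For OASL the differences were 0.36 ± 0.29 in irradiated (adjusted p = 0.297) and 1.04 ± 0.29 in untreated cells (adjusted p = 0.00592). None of the 6 members that passed in only 1 treatment is shown to differ between treatments, since the difference itself did not pass for any member, as given below.

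The comparison of irradiated with untreated cells asks whether a dose of 2 Gy changed the recovery of these RNAs 6 h later. With eIF4E, 0 of 33 members and 0 of 7178 genes (0.0%) passed an adjusted p of 0.05 in limma, and at an unadjusted p under 0.05 there were 0 members and 82 genes (1.14%). With IgG, 0 members and 0 genes (0.0%) passed, and at an unadjusted p under 0.05 there were 0 members and 475 genes (6.62%). The difference of both effects gave 0 members and 0 genes (0.0%), with 0 members and 216 genes (3.01%) at an unadjusted p under 0.05. The members' estimates lay between -0.34 and 0.27 with eIF4E and between -0.26 and 0.42 with IgG. Errors and intervals come from a spread pooled over all 4 groups. A fit of only the groups compared also passed 0 members, with eIF4E and with IgG. The 95% interval excluded a change of 1 on the log2 scale in either direction for 32 members with eIF4E and for 31 with IgG. LY6E, whose interval with eIF4E was -1.25 to 1.01, was the exception with eIF4E, and LY6E and OASL were those with IgG.

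**Figure D4:**
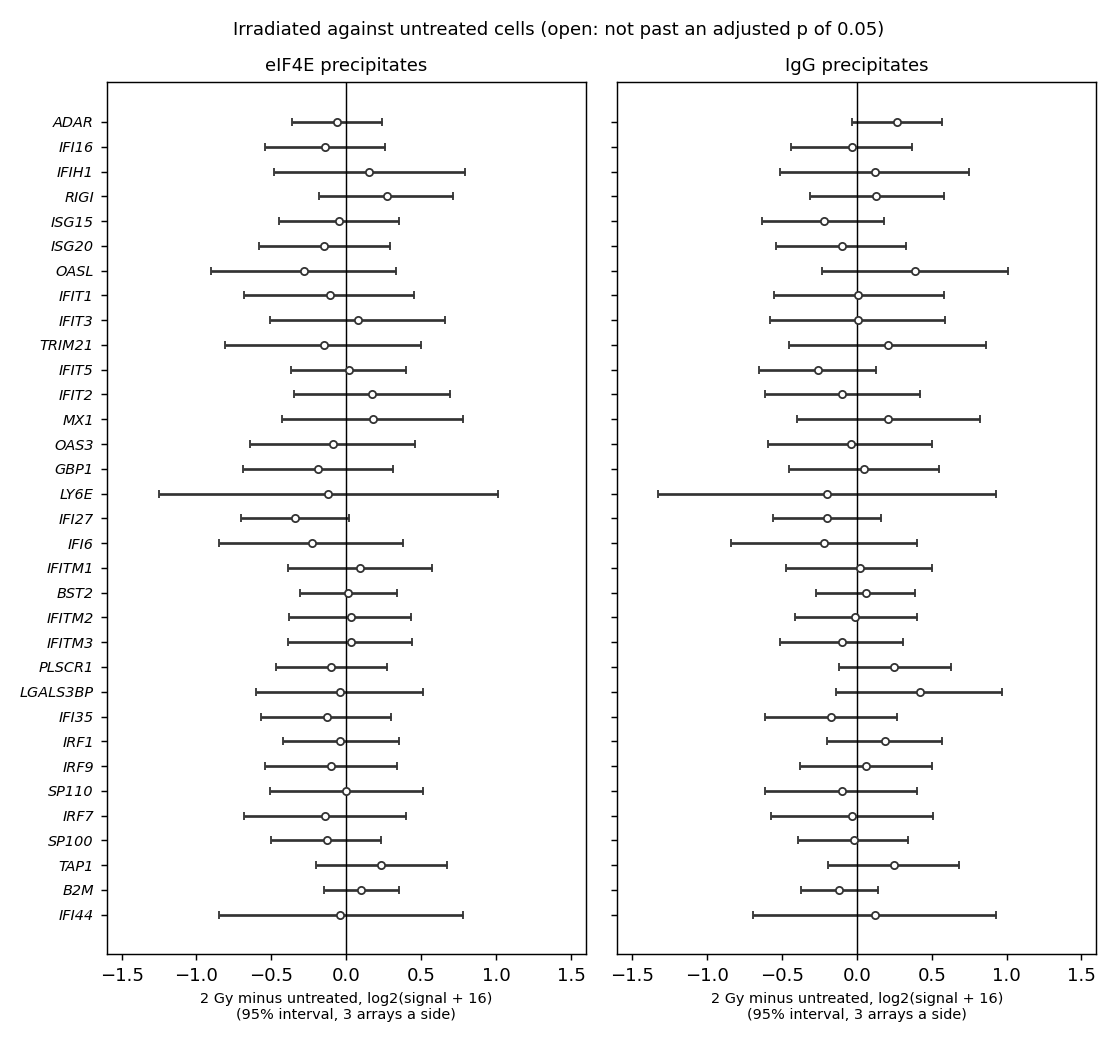
Irradiated minus untreated, as difference of mean log2(signal + 16), 3 arrays a side, for the 33 tested members in eIF4E (left) and IgG precipitates (right). The 95% intervals use a spread pooled over all 4 groups. Every interval holds 0, and open points mark that no member passed an adjusted p of 0.05.

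The members with the smallest p in each of these comparisons are given although none passed. IFI27 with eIF4E, whose array values are above, averaged 1585 ± 50.9 in irradiated and 2012 ± 37.3 in untreated precipitates (SD, n = 3 each), and every irradiated array was below every untreated one. The error of the fit also holds the spread of the IgG groups, where its SD was 43.3 in irradiated and 186.5 in untreated precipitates. It is therefore not a measure of the eIF4E arrays alone. The difference was -0.34 ± 0.17 (unadjusted p = 0.0643, adjusted p = 1.0, limma; 95% interval -0.70 to 0.02), and with IgG it was -0.20 ± 0.17. Only IFI27 and IRF7 among the members had separate irradiated and untreated eIF4E arrays, and 9.4% of all genes did; with IgG 0 members did, against 8.68% of all genes. Next came RIGI at 0.27 ± 0.21 (unadjusted p = 0.225), with 245.5 ± 10.6 in irradiated and 205 ± 47.2 in untreated eIF4E precipitates, and TAP1 at 0.23 ± 0.21 (unadjusted p = 0.275). With IgG the smallest p was that of ADAR, at 0.27 ± 0.14 (unadjusted p = 0.0759, adjusted p = 0.731), with 1593 ± 203 in irradiated and 1316.5 ± 119.5 in untreated precipitates. LGALS3BP at 0.42 ± 0.26 and PLSCR1 at 0.25 ± 0.18 followed (unadjusted p = 0.131 and 0.169). For the difference of both effects the smallest p were those of ADAR at -0.33 ± 0.20, OASL at -0.68 ± 0.41 and PLSCR1 at -0.35 ± 0.25 (unadjusted p = 0.116, 0.122 and 0.176).

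Within the groups, several members followed the replicate number. This pattern was noticed after the values were seen and is given as a description with no test. In 10 of the 33 tested members replicate 1 was the lowest of its group in all 4 groups, and 8.18% of all genes tested behaved so. By the probe sets used, they were IFI44, IFIT3, IFI6, OASL, IFIT1, GBP1, OAS3, IRF9, IFIT5 and PLSCR1. A second probe set above the filter showed the same pattern in GBP1 and PLSCR1 but not in IFIT5 and OASL. That of IFIT5 read 249.5, 195.4 and 202.1 in untreated eIF4E, and that of OASL 157.0, 279.7 and 135.8 in irradiated IgG precipitates. Replicate 2 was the lowest in all 4 groups in 0 members and replicate 3 in 1. Replicate 1 was the highest of its group in all 4 groups in 1 member, BST2, against 5.13% of all genes.

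IFI44 showed it most clearly. Its signal was 749, 2065 and 1981 in irradiated and 941, 1809.9 and 1950.5 in untreated eIF4E precipitates, against 1137.5, 1772 and 2255.5 in irradiated and 905, 2015 and 1937 in untreated IgG precipitates. Replicate 1 lay below the others with either antibody and in either treatment, by -1.41 to -0.80 on the log2 scale in the 4 groups and -1.08 on average. IFIT3, a partner of IFIT1 in binding foreign RNA, read 764, 1359.9 and 1163 in irradiated and 647.5, 1399.8 and 1132 in untreated eIF4E and 852.5, 1159.7 and 1204 in irradiated and 739, 1203 and 1314 in untreated IgG precipitates, a mean of -0.72 for replicate 1 against the others. IFIT1 read 2064, 2088.5 and 2433 in irradiated and 1855, 2846 and 2509 in untreated eIF4E and 1513, 2469 and 2628 in irradiated and 1282, 3044 and 2442 in untreated IgG precipitates, with a mean of -0.62. In irradiated eIF4E precipitates its replicates 1 and 2 nearly coincided, and in the other groups replicate 1 was clearly the lowest. GBP1 had 383, 621 and 528 in irradiated and 380.0, 772 and 640.0 in untreated eIF4E and 996, 1078.5 and 1009 in irradiated and 752, 1148 and 1132 in untreated IgG precipitates, with a mean of -0.52. These 4 genes were chosen for this paragraph after their values were seen.

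**Figure D5:**
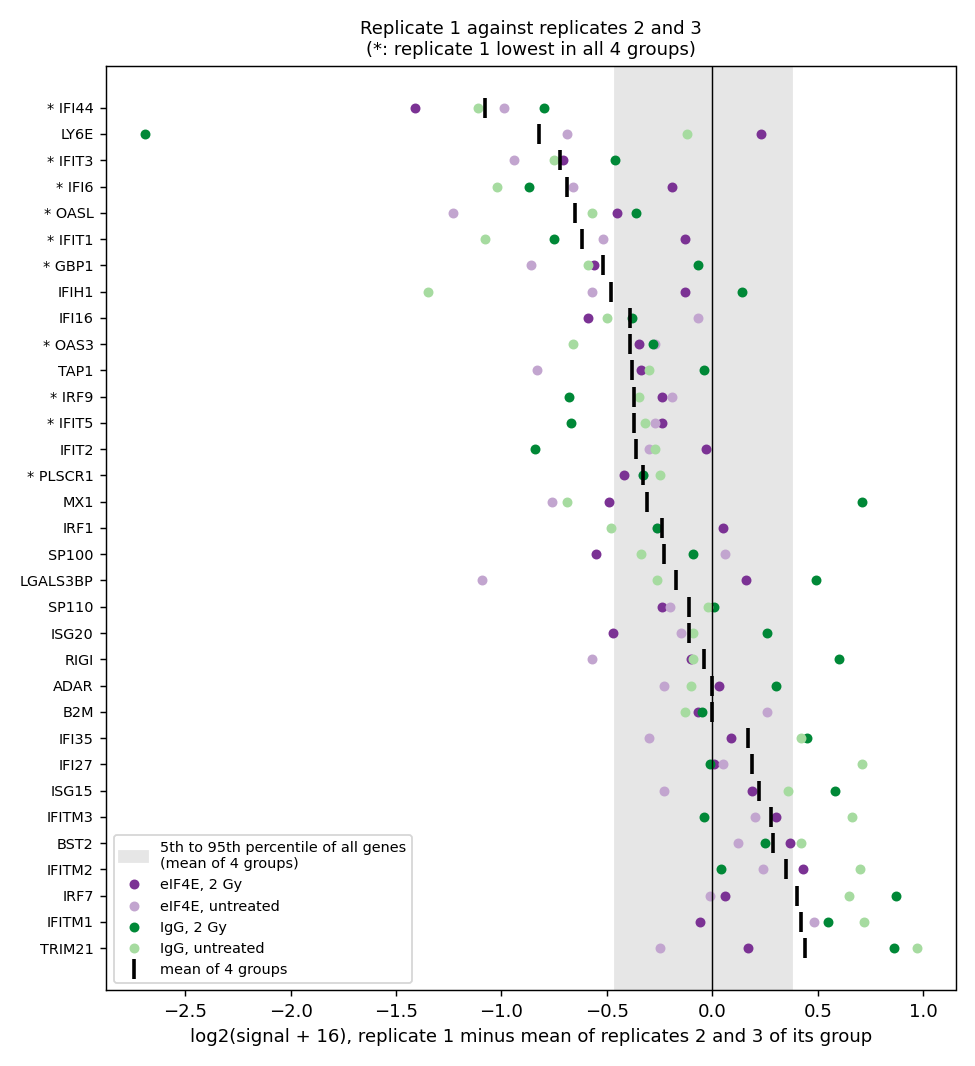
Replicate 1 minus the mean of replicates 2 and 3 of the same group, in log2(signal + 16), for each group (points) and their mean (bars), members in order of the mean. The grey band spans the 5th to 95th percentile of all genes tested, -0.46 to 0.38, and the means of 8 members lie below it.

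Over the tested members the median of this mean was -0.24, and that of all genes was -0.03, with 22 of 33 members below 0. The lowest 1% of all genes lay under -0.74, a range that IFI44 and LY6E reached. The value of LY6E rests mostly on 1 array, replicate 1 of irradiated IgG, at 11.2. The members did not all move this way: TRIM21 was at 0.44, IFITM1 at 0.42, IRF7 at 0.40 and IFITM2 at 0.35. After quantile normalization replicate 1 was lowest in all groups in 8 members (7.29% of all genes), and after median centring in 10 (7.94%). The ISRE letters were found for 8 of the 9 members with a promoter window that were lowest in replicate 1 in the deposited signals, and for 12 of the 19 other tested members with a window. The arrays concerned are also those that the bioB to bioC ratio sets apart, and the part of that difference was not tested. What the replicate numbers share, such as a day or a culture, is not given in the labels.

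Averaged over both treatments, the counts between antibodies were similar without replicate 1. Without it in every group 18 members were higher and 10 lower of 36 that then passed the filter. With it these were 16 and 11 of 33. The share of all genes that passed without replicate 1 is not given here, and with all arrays it was 70.7%. Within a treatment, leaving out only its eIF4E replicate 1 reduced the lower calls, and so did leaving out some arrays of other replicate numbers, as given above. In each irradiation comparison 0 members passed without replicate 1.

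Genes that lead to or restrain this response, from a list of 33, also went both ways. Of 28 with a probe set, 22 were tested, and 7 were higher and 10 lower with eIF4E than with IgG in the mean of both treatments, with a median difference of -0.00. The shares over all genes were 32.5% higher and 38.2% lower, and their median was -0.07. The genes of the interferons themselves were under the filter, with at most 16.1 for IFNA1, 29.8 for IFNB1 and 44.1 for IFNG on any array. SOCS3, a feedback inhibitor of JAK kinases, was higher by 1.46 ± 0.33, with 92.0 to 140.1 on eIF4E arrays and 2.74 to 79.4 on IgG arrays, which reach down to background (adjusted p = 0.000786). Its mean level on IgG arrays lay under the filter signal of 57.4, so it was tested only because of its eIF4E arrays. Its place among the 7 higher genes is therefore no independent result. IFNGR2, a chain of the interferon gamma receptor, was higher by 1.45 ± 0.10 (3252 to 4051 on eIF4E and 1067 to 1470 on IgG arrays; adjusted p = 2.61e-09). IRF3, the factor that RIG-I and MDA5 activate, was higher by 0.93 ± 0.16 (adjusted p = 5.78e-05). EIF2AK2, which encodes PKR, the kinase that halts translation when it binds double-stranded RNA, was the lowest at -2.02 ± 0.14 (99.3 to 169.5 on eIF4E and 465.5 to 663 on IgG arrays; adjusted p = 2.81e-09). MAVS, the mitochondrial adaptor of RIG-I and MDA5, was at -1.33 ± 0.14, and STAT3, a transcription factor of cytokine signalling, at -0.98 ± 0.10 (adjusted p = 2.67e-07 and 3.01e-07). With irradiation 0 of the 22 passed in either antibody.

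The members that were higher with eIF4E also come from shorter genes. The span of the annotated gene (GRCh38.p14) had a median of 6.90 kb for the 16 members higher with eIF4E and 34.8 kb for the 11 lower. The membrane members IFITM1, IFITM3 and IFITM2 span 1.23, 1.19 and 1.58 kb and ISG15 1.04 kb, whereas RIGI spans 70.9, IFI16 55.2 and IFIH1 51.6 kb. Over the 33 members span and difference had a Spearman's rho of -0.55, and over 7177 genes tested -0.47, as descriptions across genes that share the same arrays. All genes showed the same order, with medians of 15.5 kb for those higher and 57.8 kb for those lower. The spans of both kinds overlapped. The longest of the members higher with eIF4E were SP110, PLSCR1, OASL and ISG20 at 60.5, 29.4, 21.5 and 20.9 kb, and the shortest of those lower were IFIT5, B2M, IFIT2, TAP1 and GBP1 at 6.43, 6.63, 7.23, 8.5 and 12.9 kb. Whether gene length, or the Alu and 3' to 5' measures that differ between the antibodies, takes part in the members' differences was not tested.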

How the data were processed

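Each of 12 Affymetrix arrays measured the RNA of 1 precipitate. The authors deposited an intensity (linear signal) for each probe set and array, made with MAS5 per the submitters' processing notes; the sources used here give no version. With 2% trimmed at each end, every array had a mean of 500.2, and signals were used as deposited. No 2 arrays held identical values. Titles in the labels gave group and replicate number.

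Of 22277 probe sets, 19064 had 1 gene symbol in the platform annotation, updated through the gene identifier to RefSeq of GRCh38.p14 for 19052. A gene was represented by its brightest probe set, with _x_at sets taken only for want of another. Genes under the 40th percentile of mean log2(signal + 16) were left out. Differences of log2(signal + 16), which understate changes of dim genes, came from limma 3.58.1 under R 4.3.3 (lmFit, eBayes with a trend, 4 group means over 12 arrays) and adjusted with Benjamini-Hochberg over 7178 genes at 0.05. The fit was tested on simulated data. Errors are the fit's SE for log2 differences and SD for signals. Figures were drawn with matplotlib 3.10.9.

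The members and all lists were chosen with earlier results of these data known. Array values are given for up to 8 members in each direction with the largest called change between antibodies and no overlap of arrays, those with the smallest p in each irradiation comparison, those called in 1 treatment, those with opposite probe sets, and a set of fixed members; 1 of these is not reported here. For pathway genes, up to 3 in each direction are named.

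Over genes, the deviations of arrays with the same number from the mean of their group correlated at 0.374, 0.208 and 0.181 between irradiated and untreated eIF4E arrays, so the numbers may pair these arrays, on the evidence of the data and not of the labels. The values printed come from the fit without a block. Every other pair of groups had at least 1 such correlation under 0.1. For replicate 1 it was 0.277 and 0.303 between irradiated eIF4E and irradiated and untreated IgG arrays. It was 0.292 between untreated eIF4E and untreated IgG arrays, and 0.253 between irradiated and untreated IgG arrays. Between untreated eIF4E and irradiated IgG arrays it was 0.096. Alternatives tried were pseudocounts of 1 and 64, other filters, quantile normalization, median centring, no variance trend, the replicate block, a fit of only the compared groups, means of probe sets, single probe sets (chosen after seeing the data), and the omission of arrays.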

Additional observations from a re-analysis of the deposited data

How the results depend on the processing

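Averaged over both treatments, 26 to 28 members of 33 to 36 tested passed between antibodies without single arrays or replicate 1 of every group. Under the other settings 20 to 28 passed. The 20 were of 24 members tested with a filter at the 60th percentile, and the main fit passed 27 of 33. Shares of all genes under the omissions and most other settings are not given here. In the main fit the share was 70.7%. Of 33 members 25 kept their call under every alternative chosen with the design. With a filter at the 60th percentile 11 of the pathway genes passed, all that were then tested, because fewer genes were tested. Quantile normalization moved the median of all genes to 0.01 and median centring to 0.04, and gave 19 members higher and 9 lower, and 18 higher and 10 lower. All genes then split into 2544 higher and 2460 lower, and 2633 higher and 2375 lower, against 2334 and 2744 as deposited.

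Directions turned with the probe set or with the scaling. With the mean of a gene's probe sets PLSCR1 was at -0.12 (adjusted p = 0.484) and SP110 at -0.21 (adjusted p = 0.181). By single probe sets, a choice made after seeing the data, PLSCR1 was at -0.75, SP100 at -0.53 and SP110 at -0.08 and -0.04. After quantile normalization the brightest probe set of B2M was the other one, and B2M was at 0.58 (adjusted p = 7e-06). In the deposited signals that probe set was at -0.02, so the change of probe set alone does not give this value. TAP1 lost its call in 8 settings that left out arrays and in 5 others, IRF7 and SP100 gained one after quantile normalization, median centring and some omissions, and IFI44 with the mean of its probe sets (-0.55, adjusted p = 0.0286). The causes were not tested.

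With the replicate number as a block 28 members passed between antibodies (17 higher, 11 lower), 23 in untreated and 22 in irradiated cells, and 19 pathway genes. The shares of all genes with the block are not given here. Without it they were 70.7% between antibodies, 58.9% in untreated and 59.5% in irradiated cells. Those shares come from another fit, so whether the counts with the block set the members apart was not tested. With the block IRF7 passed (adjusted p = 0.0402), and 0 members passed in the irradiation comparisons, with or without the block. Signals near background limit LY6E, SP110, OAS3 and SOCS3, and 3 arrays a group limit the irradiation comparisons.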
